A study of Mus musculus with 9 samples.

Results

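The Kruppel-like factors are zinc finger transcription factors, and 10 of them (Klf2, Klf3, Klf4, Klf5, Klf6, Klf7, Klf9, Klf10, Klf13 and Klf15) are described here in whole mouse lung. They were taken by gene symbol, and all 10 were found among the 18984 genes measured in each library. The mice were C57BL/6 and had received, 24 hours earlier by the intratracheal route, hyphal fragments of Aspergillus fumigatus (the filamentous form of this mould; called hyphae here), conidia of the fungus (its inhaled spores) or normal saline (control). There were 3 libraries per group, 9 in all, of poly(A) RNA, and the labels used here give no fungal strain, inoculum, sex or age. Nor do they say whether each library had a mouse of its own, so the p-values measure the spread between these libraries, which may be technical.

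Kruppel-like factors bind CACCC and GC-rich boxes through zinc fingers near their C terminus and differ in the partners that the rest of the protein recruits. Klf2, Klf4, Klf5, Klf6 and Klf7 are mostly known as activators, Klf3 as a repressor that recruits CtBP, and Klf9, Klf10 and Klf13 as factors that bind the corepressor Sin3A. In the lung Klf2 and Klf4 are known for the quiescent, flow-exposed endothelium and Klf5 for the maturation of the epithelium, while Klf9 and Klf15 are classical glucocorticoid-induced genes.

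Levels are FPKM (fragments per kilobase of transcript, scaled to the mapped fragments of the library), a scale per transcript length on which genes can be compared with each other. Summed FPKM per library ranged from 492540 to 515755 after hyphae, from 505792 to 522168 after conidia and from 518913 to 561250 in control. The files hold no counts, and the lowest values of sparse genes gave an approximate depth of 16.2 to 18.2 M fragments per library, overlapping between groups. Of 14 endothelial, 8 alveolar type 1 and 10 alveolar type 2 marker genes, which mark the labelled tissue, none was at 0 in all libraries of a group. On the log2(FPKM + 1) scale used for tests, the median of all genes tested was shifted by −0.37 between hyphae and control, by −0.29 between hyphae and conidia and by −0.07 between conidia and control. For this reason a second set of values, divided by a factor per library from the median of gene ratios, stands beside the deposited ones and is called rescaled. Its median gene lies near 0 by construction.

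Promoter sequence was matched from RefSeq (GRCm38.p6, a later build than the mm9 named for these data) for 8 of the 10 genes, all but Klf5 and Klf10. The 250 bases before the transcript start are shown, 5′ to 3′ on the gene's strand, for Klf2, the member with the deepest fall after hyphae, and for Klf6, Klf9 and Klf4, members that rose there. Capitals mark matches, on either strand, to the KLF/SP box (CCNCNCCC), the E-box (CACGTG), a loose AP-1 site (TGANTCA) or the MEF2 box. Adjoining matches run together. The windows lie at chr8:72318812-72319061 (plus strand) for Klf2, chr13:5861239-5861488 (plus strand) for Klf6, chr19:23140976-23141225 (plus strand) for Klf9 and chr4:55532476-55532725 (minus strand) for Klf4.
Klf2: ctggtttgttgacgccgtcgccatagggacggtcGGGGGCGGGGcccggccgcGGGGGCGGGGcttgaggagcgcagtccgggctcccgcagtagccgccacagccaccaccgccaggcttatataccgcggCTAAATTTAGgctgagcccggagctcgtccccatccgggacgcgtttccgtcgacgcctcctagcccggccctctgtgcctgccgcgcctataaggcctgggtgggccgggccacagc
Klf6: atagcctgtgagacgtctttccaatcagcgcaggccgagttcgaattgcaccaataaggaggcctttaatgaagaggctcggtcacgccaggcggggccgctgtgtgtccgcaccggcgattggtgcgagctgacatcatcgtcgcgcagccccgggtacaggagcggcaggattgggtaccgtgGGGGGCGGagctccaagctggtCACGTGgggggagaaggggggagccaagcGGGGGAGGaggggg
Klf9: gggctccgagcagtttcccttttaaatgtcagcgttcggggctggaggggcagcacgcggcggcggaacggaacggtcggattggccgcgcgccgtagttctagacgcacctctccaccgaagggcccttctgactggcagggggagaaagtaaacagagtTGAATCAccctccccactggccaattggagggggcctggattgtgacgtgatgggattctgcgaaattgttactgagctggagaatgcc
Klf4: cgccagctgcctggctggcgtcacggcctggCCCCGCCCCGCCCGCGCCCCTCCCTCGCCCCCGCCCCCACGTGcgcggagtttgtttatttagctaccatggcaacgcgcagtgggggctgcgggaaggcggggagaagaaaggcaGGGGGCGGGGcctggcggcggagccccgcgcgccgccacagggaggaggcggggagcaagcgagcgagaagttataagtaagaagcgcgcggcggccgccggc

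The family's own box was common in these windows. It had 4 matches in Klf2, 2 in Klf6, none in Klf9 and 9 in Klf4, and 7 of the 8 members had at least 1, against 45.9% of all 32851 RefSeq promoter windows of the same length. The 8 windows had a GC content of 59.2 to 78.4%, and the median of all windows was 52.4%. The MEF2 box was found in Klf2 alone among the 8, as CTAAATTTAG with its first base at position −118 from the start, and in 2.92% of all windows. E-boxes lay in Klf4, Klf6 and Klf15 (6.02% of all windows), and in Klf4 the E-box shares 1 base with a KLF/SP match. A match to the loose AP-1 site, which allows any middle base, lay in Klf9 as TGAATCA (6.75% of all windows). A loose form of the NF-kB site, not capitalised, matched in 6 of the 8 windows and in 45.8% of all. Some of these matches overlapped KLF/SP matches in Klf2, Klf4, Klf13 and Klf15, and none did in Klf3 and Klf6. The CRE (TGACGTCA), the CArG box and the glucocorticoid response element, searched as its palindromic consensus, had no match in the 8 windows and stood in 1.55%, 1.47% and 0.387% of all windows. A match is a description of letters, and binding was not measured.

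Hyphae were compared with saline to ask how the factors stood 1 day after the filamentous form was given. Most of the 10 members were higher: 8 rose (Klf3, Klf4, Klf6, Klf7, Klf9, Klf10, Klf13 and Klf15), 7 of them by a log2 difference of at least 1. Klf2 and Klf5 fell as deposited. Of all 13761 genes tested, 14.9% were called higher and 50.0% lower (64.9% in all), and 4.80% were called with a log2 difference of at least 1. After rescaling the same 8 members rose, each by at least 1, and neither Klf2 nor Klf5 was called (30.0% of all genes higher, 29.3% lower, 59.3% in all). The median log2 difference of the 10 members was 1.50 (1.91 rescaled), beside −0.37 (0.00 rescaled) for all genes tested. The 10 were chosen with earlier results of these data known, so these counts and medians describe them and do not test the family. Of 9 other KLF and SP genes tested, 4 rose and 3 fell as deposited. In each of the 8 rising members all 3 hyphae libraries lay above all 3 controls, which 17.3% of all genes did. Their calls held in all 20 settings tried, among them the omission of each of the 9 libraries in turn.

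**Figure D1:**
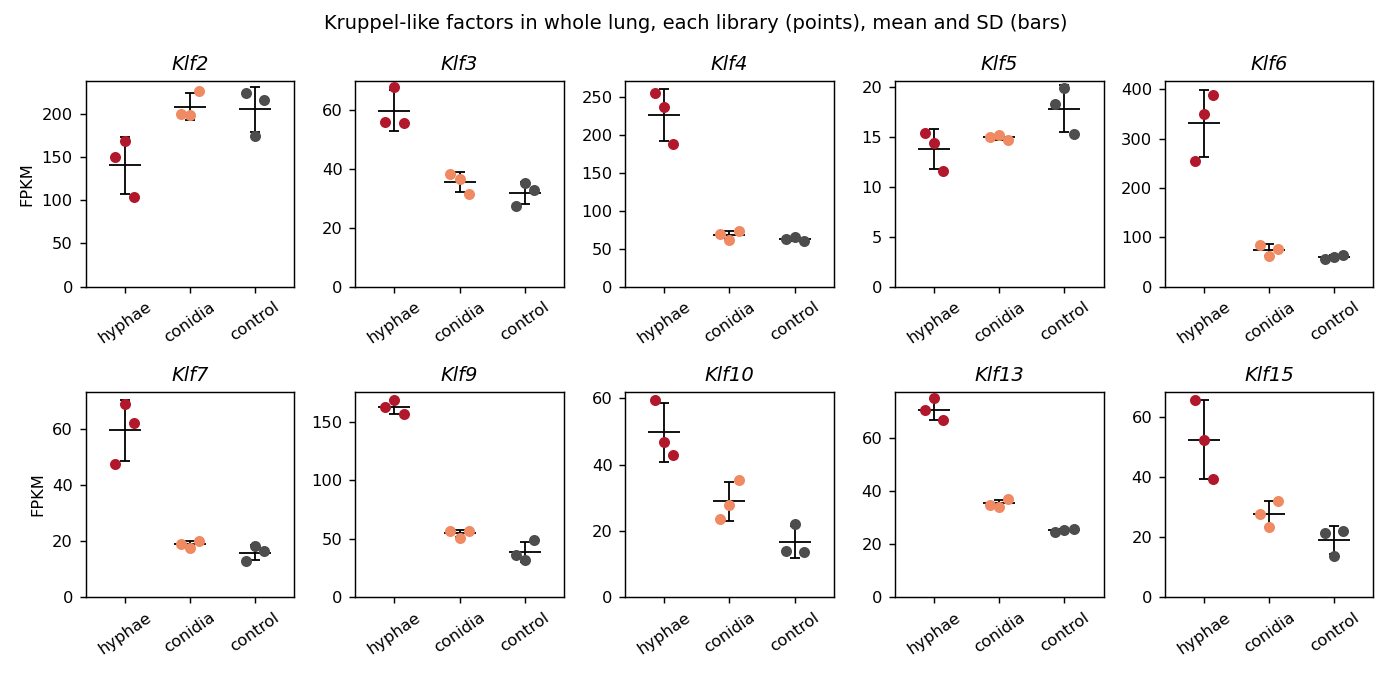
FPKM of each of the 10 Kruppel-like factors (vertical axes, each from 0) in hyphae, conidia and control libraries; points are libraries and bars the mean and SD of 3. The hyphae points lie above all others for Klf3, Klf4, Klf6, Klf7, Klf9, Klf10, Klf13 and Klf15, and below all others for Klf2.

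Klf6, an activator induced by tissue injury, had the largest rise. It stood at 255, 350 and 389 FPKM in hyphae libraries 1 to 3, against 55.5, 59.5 and 64.4 FPKM in control libraries 1 to 3. The lowest hyphae library was thus far above the highest control. The means were 331 ± 68.8 and 59.8 ± 4.47 FPKM (SD, n = 3 each), with a log2 difference of 2.43 (SE 0.17, limma adjusted p = 2.49e-05; 2.86 rescaled). Klf7, the member closest to Klf6 in sequence and best known from neuronal development, stood at 47.6, 68.9 and 61.9 FPKM in hyphae libraries and at 12.97, 18.2 and 16.6 FPKM in control libraries. Its log2 difference was 1.83 (SE 0.16, limma adjusted p = 4.61e-05; 2.25 rescaled). In both genes the first hyphae library was the lowest of its group.

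Klf4 and Klf2, which share endothelial targets, moved in opposite directions as deposited. Klf4, also a factor of epithelial and monocyte differentiation, stood at 255, 237 and 188 FPKM in hyphae libraries, against 62.4, 64.8 and 60.1 FPKM in control libraries. The groups were far apart, with a log2 difference of 1.83 (SE 0.13, limma adjusted p = 2.43e-05; 2.26 rescaled). Klf2, which maintains endothelial quiescence and is high in naive lymphocytes, stood at 149.9, 168 and 103 FPKM in hyphae libraries, against 224, 175 and 217 FPKM in control libraries. The groups did not overlap, but the highest hyphae library came close to the lowest control. Its log2 difference was −0.57 (SE 0.18, limma adjusted p = 0.021), and rescaled it was −0.14 (adjusted p = 0.542), so that the fall was not called once the shift of the median gene was removed. Of all genes, 53.4% had every hyphae library below every control.

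The call of Klf2 also ended without control replicate 1 (limma adjusted p = 0.0668), without control replicate 3 (0.0634) and without hyphae replicate 3, where the log2 difference was −0.36 (0.0514). The ratio of Klf2 to Klf4 within a library does not depend on scaling between libraries. It was 0.588, 0.712 and 0.550 in hyphae libraries, against 3.59, 2.70 and 3.61 in control libraries. Klf2 was the more abundant of the pair in every control library and the less abundant in every hyphae library (exact permutation test, two-sided, p = 0.1, the smallest that 3 against 3 allows).

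Markers of the cells that are rich in Klf2 moved as follows. Of 14 endothelial markers 4 rose and 2 fell after hyphae (6 and 1 rescaled), with a median log2 difference of 0.18. Among all genes 14.9% were called higher and 50.0% lower (30.0% and 29.3% rescaled). Their summed level was 2065, 2159 and 2114 FPKM in hyphae libraries, against 1448, 1940 and 2047 FPKM in control libraries. Control replicate 1 alone was far below the hyphae libraries. Of the lymphocyte markers tested, 6 of 8 for T cells, 7 of 8 for B cells and 4 of 6 for NK cells fell (5, 3 and 3 rescaled). None of them rose. Without control replicate 1 or 2 or hyphae replicate 1 the count was 3 of 8 for B cells and 2 of 6 for NK cells, and without hyphae replicate 2 it was 4 of 8 for B cells. The summed levels of T, B and NK cell markers were 10.5 to 18.6, 23.9 to 63.2 and 5.6 to 16.1 FPKM after hyphae. In control they were 29.9 to 39.7, 98.9 to 179 and 16.3 to 32.1 FPKM. No marker on these lists was at 0 in all libraries of a group. In whole lung, fewer cells of a type and less RNA per cell cannot be told apart, and the part of cell numbers in the Klf2 values was not tested.

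Klf5, an epithelial factor that in mice is needed for normal alveolar maturation, was the lowest of the 10 members after hyphae. It stood at 15.4, 14.4 and 11.6 FPKM in hyphae libraries and at 18.3, 19.9 and 15.3 FPKM in control libraries, and the groups overlapped. Its log2 difference of −0.35 (SE 0.13, limma adjusted p = 0.034) was close to the shift of the median gene, and rescaled it was 0.06 (adjusted p = 0.711). The call ended without control replicate 1 (0.0882) or 2 (0.123) or hyphae replicate 2 (0.0552) or 3 (0.111; log2 difference −0.24), and with the 6 libraries alone (0.0645). Epithelial markers beside it differed by cell type. All 10 ciliated cell markers and 7 of 8 club cell markers fell (10 and 4 rescaled). Among 10 alveolar type 2 markers 1 rose and 4 fell (4 and 2 rescaled), and among 8 alveolar type 1 markers 1 rose and 2 fell (5 and 1 rescaled). Among all genes 14.9% were called higher and 50.0% lower (30.0% and 29.3% rescaled). The share of alveolar markers that fell was thus below that of all genes under both scalings. Without hyphae replicate 2 the count of club cell markers was 4, and that of alveolar type 1 markers that fell was 1 without control replicate 2 or hyphae replicate 3. Their part in the Klf5 values was not tested.

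Klf9, Klf10 and Klf13, the members that bind Sin3A, all rose. Klf9 stood at 163, 169 and 157 FPKM in hyphae libraries, against 36.4, 32.2 and 48.8 FPKM in control libraries. The hyphae libraries lay close together, and the log2 difference was 2.05 (SE 0.14, limma adjusted p = 2.43e-05; 2.48 rescaled). Klf13, known in T cells as an activator of the chemokine gene Ccl5, had the smallest standard error of the family. It stood at 70.4, 74.9 and 66.8 FPKM in hyphae libraries and at 24.7, 25.4 and 25.7 FPKM in control libraries, with a log2 difference of 1.45 (SE 0.08, limma adjusted p = 1.89e-05; 1.87 rescaled). Klf10, first described as a gene induced early by TGF-beta, stood at 59.6, 46.8 and 42.8 FPKM in hyphae libraries, against 14.01, 22.1 and 13.8 FPKM in control libraries. Its groups were apart although control replicate 2 stood above the other two, and the log2 difference was 1.54 (SE 0.21, limma adjusted p = 0.00034; 1.96 rescaled).

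Klf15, a regulator of amino acid and glucose metabolism, stood at 65.8, 52.4 and 39.3 FPKM in hyphae libraries, against 21.5, 13.7 and 21.9 FPKM in control libraries. The spread among hyphae libraries was wide (52.5 ± 13.3 FPKM), yet the lowest exceeded every control, with a log2 difference of 1.42 (SE 0.23, limma adjusted p = 0.000716; 1.83 rescaled). Klf3, the CtBP-recruiting repressor, had the smallest rise of the 8. It stood at 55.9, 67.8 and 55.7 FPKM in hyphae libraries and at 27.5, 35.1 and 32.8 FPKM in control libraries, a log2 difference of 0.89 (SE 0.13, limma adjusted p = 0.000365; 1.31 rescaled).

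Neutrophil markers rose alongside these members. Of 12 tested 11 were higher after hyphae than in control, beside 14.9% of all genes. The sum over all 14 measured was 668 to 5975 FPKM after hyphae, 846 to 3170 FPKM after conidia and 74.9 to 142 FPKM in control. The sums after hyphae and after conidia overlapped. Of the 12 markers 2 were called higher and 1 lower after hyphae than after conidia (12.7% and 42.5% of all genes). Of 12 markers of monocytes and recruited macrophages none rose and 4 fell (4 and 2 rescaled). Without control replicate 1 or 2 there was 1 that rose, and without hyphae replicate 1 there were 2. Among all genes 14.9% were called higher and 50.0% lower (30.0% and 29.3% rescaled). The part of infiltrating cells in the rises was not tested.

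**Figure D2:**
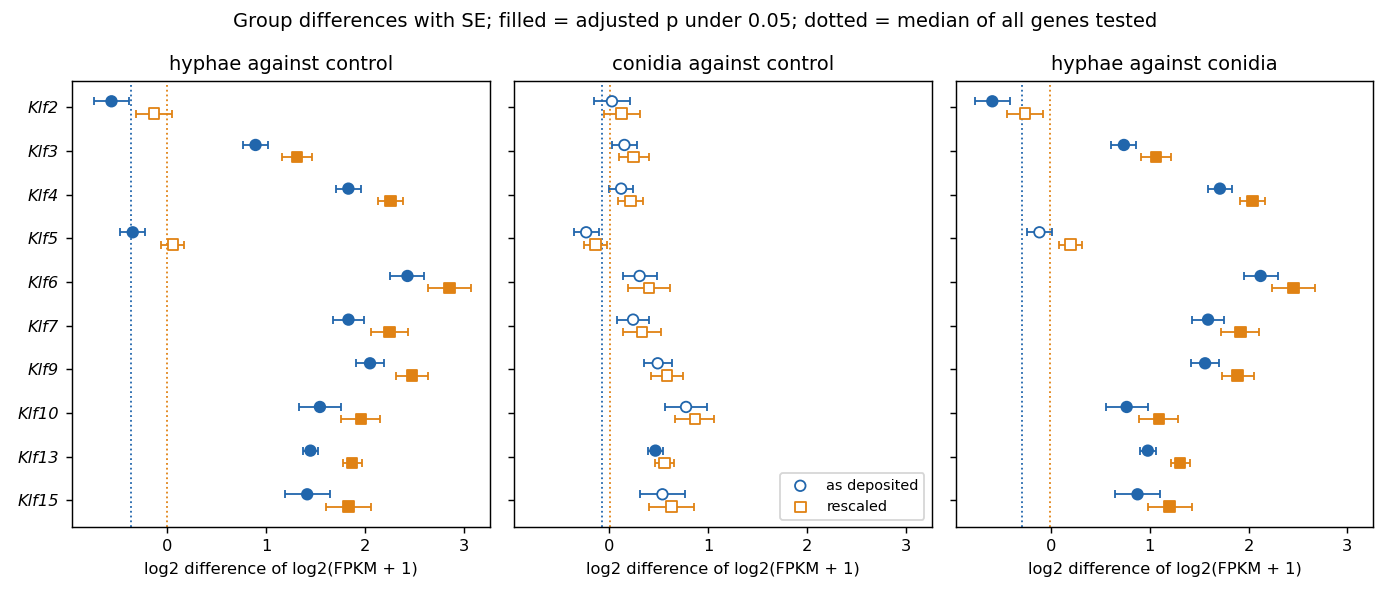
Log2 differences of the 10 Kruppel-like factors (horizontal axes, log2(FPKM + 1) scale; bars are SE) in the 3 comparisons, as deposited and rescaled; filled symbols have an adjusted p under 0.05 and dotted lines mark the median of all genes tested. Klf6, at 2.43 as deposited, lies farthest right for hyphae against control, and Klf2 and Klf5 lie near the dotted lines.

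The order of levels within the family changed with hyphae. In control Klf2 was highest at 205 ± 26.5 FPKM, above Klf4 (62.4 ± 2.39) and Klf6 (59.8 ± 4.47), whose libraries overlapped. Klf9 (39.1 ± 8.61), Klf3 (31.8 ± 3.87), Klf13 (25.3 ± 0.513) and Klf15 (19.0 ± 4.62) followed, and Klf5 (17.9 ± 2.32), Klf10 (16.6 ± 4.73) and Klf7 (15.9 ± 2.68) were lowest, with overlapping libraries among Klf15, Klf5, Klf10 and Klf7. After hyphae Klf6 (331 ± 68.8) and Klf4 (227 ± 34.5) led with overlapping libraries. Klf9 (163 ± 6.10) and Klf2 (141 ± 33.5) came next, overlapping each other and, in the case of Klf9, apart from Klf4. Klf13 (70.7 ± 4.06), Klf3 (59.8 ± 6.93), Klf7 (59.5 ± 10.9), Klf15 (52.5 ± 13.3) and Klf10 (49.7 ± 8.78) formed a run in which each overlapped its neighbour, and Klf5 (13.8 ± 1.99) stood apart at the bottom.

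Summed over the 10 members, the level was 1137, 1249 and 1115 FPKM in hyphae libraries, 569, 528 and 604 FPKM in conidia libraries and 498, 466 and 516 FPKM in control libraries. Every hyphae library exceeded every other library, and every conidia library exceeded every control (exact permutation test, two-sided, p = 0.1 for each pair of groups, the smallest that 3 against 3 allows). Klf2 supplied 9.27 to 13.5% of the sum after hyphae, 35.1 to 37.7% after conidia and 37.6 to 45.1% in control. Klf6 supplied 22.4 to 34.9% of it after hyphae, 11.8 to 15.0% after conidia and 11.1 to 12.8% in control.

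**Figure D3:**
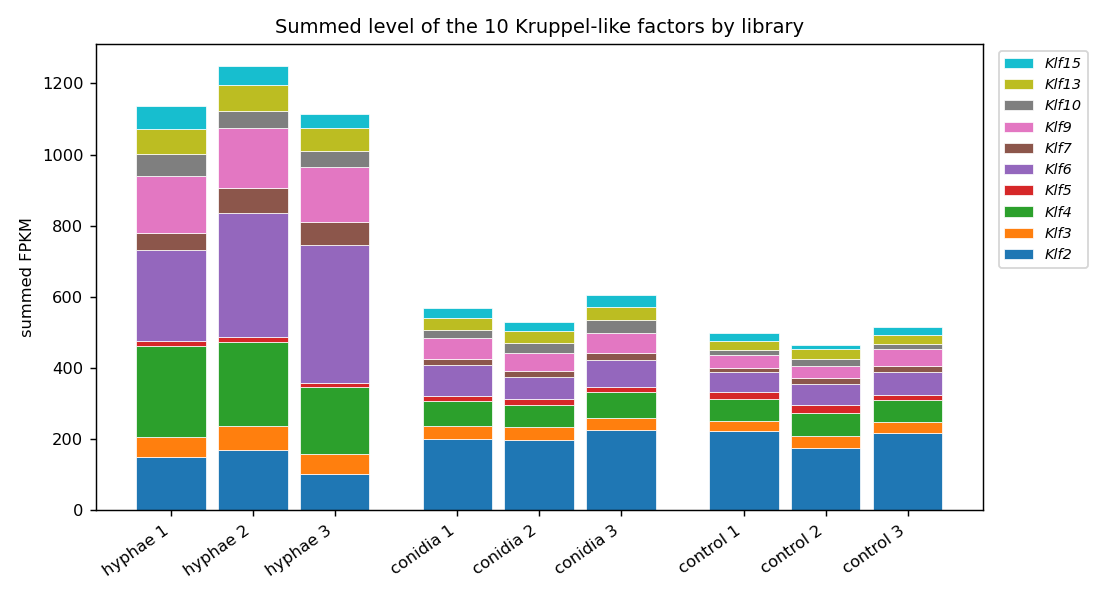
Summed FPKM of the 10 Kruppel-like factors in each library (vertical axis), with 1 coloured segment per gene. The hyphae bars reach 1115 to 1249, against 528 to 604 after conidia and 466 to 516 in control, and the Klf2 segment at the base is the largest in each conidia and control bar.

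The spores were then set against saline. Of the 10 members Klf13 alone rose: it stood at 34.9, 34.2 and 36.9 FPKM in conidia libraries, against 24.7, 25.4 and 25.7 FPKM in control libraries. All 3 conidia libraries lay above all controls, with a log2 difference of 0.47 (SE 0.08, limma adjusted p = 0.047; 0.56 rescaled, adjusted p = 0.0569). This made 1 of 10 members called, against 0.690% of all genes (0.596% higher, 0.0945% lower), and none after rescaling, where 0.342% of all genes were called (0.298% higher, 0.0436% lower). The call ended without control replicate 1 (0.163), 2 (0.168) or 3 (0.109), conidia replicate 1 (0.14) or 3 (0.217) or hyphae replicate 2 (0.0912), and the difference stayed between 0.44 and 0.56 in all 20 settings.

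Klf9, Klf10 and Klf15 also had all 3 conidia libraries above all 3 controls, which with Klf13 makes 4 of 10 members, against 12.0% of all genes. None of them passed the test. Klf9 stood at 56.5, 50.8 and 56.5 FPKM in conidia libraries and at 36.4, 32.2 and 48.8 FPKM in control libraries (log2 difference 0.49, limma adjusted p = 0.117). Klf10 stood at 23.6, 27.8 and 35.4 FPKM in conidia libraries and at 14.01, 22.1 and 13.8 FPKM in control libraries (0.78, limma adjusted p = 0.111). Klf15 stood at 27.6, 23.5 and 32.2 FPKM in conidia libraries and at 21.5, 13.7 and 21.9 FPKM in control libraries (0.54, limma adjusted p = 0.219). In each of these genes the conidia values lay between the control and the hyphae values.

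The other members were near their control levels after conidia. Klf2 averaged 209 ± 15.9 FPKM after conidia and 205 ± 26.5 FPKM in control (SD, n = 3 each), Klf4 averaged 68.1 ± 5.82 and 62.4 ± 2.39 FPKM, and Klf6 averaged 74.7 ± 11.7 and 59.8 ± 4.47 FPKM after conidia and in control. Their log2 differences were 0.03 (SE 0.18), 0.12 (SE 0.13) and 0.31 (SE 0.17), and the limma adjusted p was 0.941, 0.586 and 0.323. Klf3 and Klf7 differed by 0.15 (0.487) and 0.24 (0.392). Klf5 had all 3 conidia libraries, at 14.96, 15.2 and 14.7 FPKM, below all 3 controls at 18.3, 19.9 and 15.3 FPKM, as did 17.8% of all genes, and its log2 difference of −0.23 was not called (limma adjusted p = 0.308). Of the 12 neutrophil markers tested, 3 were called higher after conidia, with a median log2 difference of 2.89 (none called rescaled, median 2.90). The count was 9 without conidia replicate 2 or hyphae replicate 1, 7 without hyphae replicate 3 and 0 without any 1 of the other libraries.

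Hyphae were also set directly against conidia. The labels give no inoculum, so the form of the fungus and its dose cannot be told apart in this comparison. The same 8 members were higher after hyphae (12.7% of all genes were called higher, 42.5% lower and 55.2% in all), all 8 with every hyphae library above every conidia library (14.8% of all genes). The log2 differences were 2.12 for Klf6, 1.71 for Klf4, 1.59 for Klf7, 1.56 for Klf9, 0.98 for Klf13, 0.88 for Klf15, 0.77 for Klf10 and 0.74 for Klf3, with limma adjusted p of 3.98e-05 (Klf4) to 0.0142 (Klf10). After rescaling (25.4% of all genes higher, 25.4% lower, 50.8% in all) each was at least 1.06, and the 8 calls held in all 20 settings. Klf2 was lower by −0.59 (SE 0.18, limma adjusted p = 0.0205), and this call ended after rescaling (−0.26, adjusted p = 0.258) and without conidia replicate 3 (0.0705). Klf5 differed by −0.12 (limma adjusted p = 0.454), and rescaled by 0.20. These comparisons share libraries and are not independent of each other.

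Of 14 other measured members of the wider KLF and SP family, 9 passed the filter on low values. Of these 9, 4 rose and 3 fell after hyphae with deposited values (5 and 1 rescaled), with a median log2 difference of 0.12. The shares of all genes were 14.9% higher and 50.0% lower (30.0% and 29.3% rescaled). Klf11, which binds Sin3A as Klf10 does, stood at 23.2 ± 0.374 FPKM after hyphae, against 9.97 ± 1.36 FPKM in control (log2 difference 1.15, SE 0.14, limma adjusted p = 0.000178). Klf16, of the same group, stood at 3.20 ± 0.278 FPKM after hyphae and 7.02 ± 1.33 FPKM in control and fell by 0.92 on the log2 scale (−0.57 rescaled). The GC-box factors Sp4 and Sp2 rose by 0.72 and 0.70. After conidia no member of this list was called.

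In the ERK5 pathway, which induces Klf2 and Klf4 through MEF2 factors in endothelium, 3 of 7 genes rose and 1 fell (4 and 1 rescaled). The shares of all genes were 14.9% higher and 50.0% lower (30.0% and 29.3% rescaled). Mapk7, which encodes ERK5 itself, stood at 5.84 ± 0.721 FPKM after hyphae, against 12.5 ± 1.83 FPKM in control (log2 difference −0.98, SE 0.12, limma adjusted p = 0.000225; −0.59 rescaled). Mef2a, Map3k3 and Mef2d rose by 0.81, 0.52 and 0.33, the last call ending without control replicate 2 (0.0539) or 3 (0.0594) or hyphae replicate 2 (0.0557).

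A list of 11 genes held corepressors and degradation factors of the family and the acetyltransferases Ep300 and Kat2b, which are coactivators. Of the 11, 1 rose and 5 fell after hyphae, beside 50.0% of all genes called lower. After rescaling 5 rose and 2 fell, so the balance of this list depends on the scaling (median log2 difference −0.38 as deposited, 0.04 rescaled). Hdac2, a histone deacetylase of the Sin3 complex, and Ctbp2, a corepressor recruited by Klf3, fell under both, by 1.30 and 1.06 as deposited. The coactivator gene Kat2b and the deacetylase gene Hdac1 fell by 0.63 and 0.57 as deposited and were not called after rescaling. In the TGF-beta pathway, which induces Klf10, 2 of 11 genes rose and 2 fell (6 and 1 rescaled). The shares of all genes were 14.9% higher and 50.0% lower (30.0% and 29.3% rescaled). Skil, a feedback inhibitor of SMADs, rose by 1.35 and the receptor gene Tgfbr2 by 0.61, while the ligand gene Tgfb3 fell by 0.94. Smad7 was called by a narrow margin (−0.41, limma adjusted p = 0.04996) and was not called after rescaling or without any 1 of control replicates 2 and 3, conidia replicates 1, 2 and 3 and hyphae replicates 2 and 3 (0.0549 to 0.176). In none of these lists was a gene called after conidia with all 9 libraries. Without conidia replicate 2, where 1535 genes were called in all, 1 gene of the TGF-beta list was called higher and 1 of the ERK5 list lower.

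Targets were read beside the factors. Of 8 endothelial targets of Klf2 and Klf4, 3 rose and 1 fell after hyphae (5 and 0 rescaled), with a median log2 difference of 0.27. Among all genes 14.9% were called higher and 50.0% lower (30.0% and 29.3% rescaled). Aqp1, a water channel, stood at 340 ± 63.1 FPKM after hyphae, against 173 ± 47.1 FPKM in control (log2 difference 0.99, SE 0.25, limma adjusted p = 0.00777). S1pr1, a sphingosine phosphate receptor that Klf2 controls in lymphocytes as well, rose by 0.98 and Ptgds, a prostaglandin D synthase at only 2.73 ± 0.813 FPKM after hyphae and 0.4 ± 0.288 FPKM in control, by 1.41. Thbd, the anticoagulant thrombomodulin, fell by 0.64 (limma adjusted p = 0.0444). That call ended after rescaling (0.456) and without control replicate 2 or 3, conidia replicate 3 or any 1 hyphae replicate (0.0618 to 0.147). Nos3, endothelial nitric oxide synthase, stood at 7.44 ± 0.708 FPKM after hyphae and 8.33 ± 0.85 FPKM in control and was not called (limma adjusted p = 0.312). Itgb7, an integrin gene of lymphocyte homing and also a target of Klf2 in lymphocytes, fell by 1.35 (limma adjusted p = 0.00141). After conidia none of the 8 endothelial targets was called, nor was Itgb7 with all 9 libraries. Without conidia replicate 2 Itgb7 was called lower (−1.08, limma adjusted p = 0.0111).

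Of 5 metabolic targets of Klf15, 4 fell after hyphae as deposited, none rose, and 2 fell after rescaling (median −0.90, −0.57 rescaled). Of all genes tested, 50.0% were called lower as deposited and 29.3% after rescaling (median −0.37, 0.00 rescaled). Acss2, an acetyl-CoA synthetase, stood at 8.66 ± 3.52 FPKM after hyphae and 22.7 ± 8.37 FPKM in control (log2 difference −1.32, SE 0.34, limma adjusted p = 0.0087), and Bcat2, which starts the breakdown of branched-chain amino acids, fell by 1.24. Prodh and Gpt fell by 0.82 and 0.76 as deposited and not after rescaling, and Prodh not without control replicate 1 (0.0555) or hyphae replicate 2 (0.0581). Without single libraries 3 to 5 of the 5 were called lower. After conidia none was called with all 9 libraries, and without conidia replicate 2 Gpt was called lower (−0.96, limma adjusted p = 0.00423). Control replicate 1 was the highest library for Acss2 (32.4 FPKM, against 17.9 and 17.9 FPKM in the other controls) and Bcat2 (34.1, against 20.8 and 20.2 FPKM). The same library stood apart for 7 adipose tissue markers, whose summed level was 45.5, 13.6 and 637 FPKM in hyphae libraries and 1382, 50.4 and 185 FPKM in control libraries. The sum of 8 cardiac muscle markers was 263, 123 and 2470 FPKM in hyphae libraries and 1711, 501 and 578 FPKM in control libraries. None of the 6 adipose and 8 cardiac markers tested was called, with medians of −1.38 and −0.96, and without hyphae replicate 3 all 8 cardiac markers were called lower. The part of adipose and cardiac tissue in the values of these targets was not tested.

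Glucocorticoid-responsive genes were read beside Klf9 and Klf15. Of 7 genes 6 rose after hyphae under both scalings and with each library left out. Among all genes 14.9% were called higher as deposited and 30.0% rescaled. The median log2 difference of the 7 was 2.62, beside 2.05 for Klf9 and 1.42 for Klf15. The part of glucocorticoids in these rises was not tested. Fkbp5, a cochaperone in the glucocorticoid receptor complex, stood at 45.9 ± 11.0 FPKM after hyphae, 33.6 ± 17.4 FPKM after conidia and 4.90 ± 1.59 FPKM in control. It differed from control by 3.0 after hyphae (SE 0.42, limma adjusted p = 0.000393) and by 2.42 after conidia (adjusted p = 0.047; 0.0594 rescaled), and the conidia call ended without control replicate 1, 2 or 3, conidia replicate 1 or 3 or hyphae replicate 2 or 3 (0.054 to 0.217). Zbtb16, Per1 and Sgk1 rose by 2.98, 2.91 and 2.62 after hyphae. Tsc22d3, also a glucocorticoid target, did not pass, at 102 ± 25.8 FPKM after hyphae and 96.5 ± 33.8 FPKM in control (limma adjusted p = 0.729). After conidia Fkbp5 was the only one of the 7 called with all 9 libraries, and without conidia replicate 2 the count was 3.

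**Figure D4:**
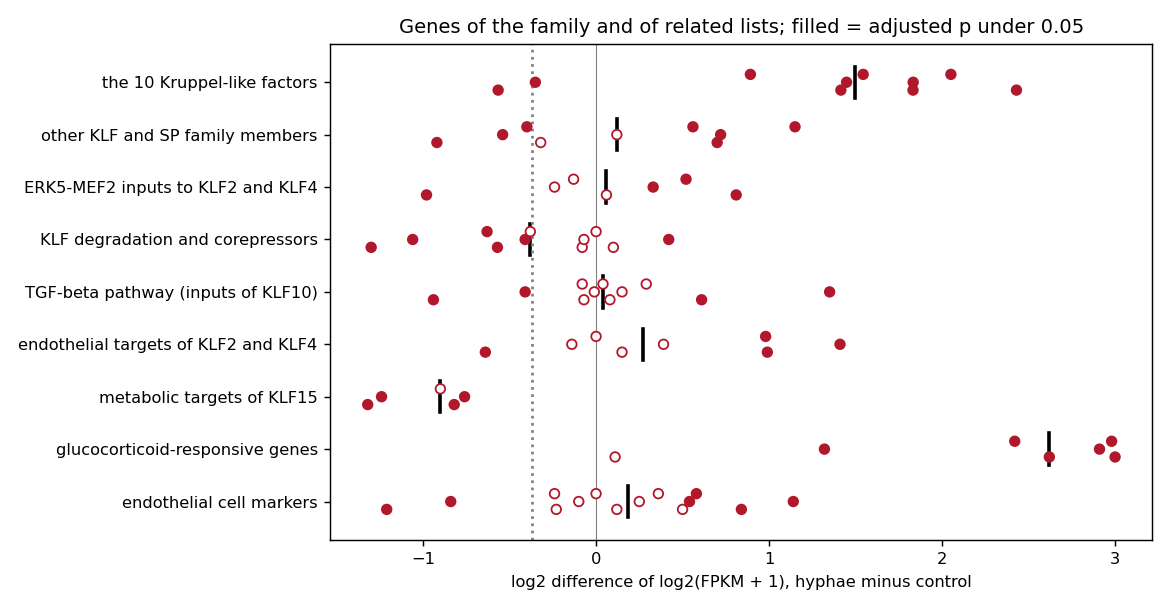
Log2 differences of hyphae minus control (horizontal axis, log2(FPKM + 1) scale, as deposited) for the 10 Kruppel-like factors and for genes of related lists, 1 point per gene; filled points have an adjusted p under 0.05, black bars are list medians and the dotted line is the median of all genes tested. The 10 factors have a median of 1.50, the glucocorticoid-responsive genes one of 2.62 and the metabolic targets of Klf15 one of −0.90.

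The genes with the profile most like that of Klf6 over the 9 libraries were Shb, Epha2 and Spidr, with root mean square differences of 0.119, 0.125 and 0.147 between centred log2(FPKM + 1) values. Epha2, a receptor of ephrins, stood at 144 ± 31.8 FPKM after hyphae, 30.5 ± 5.58 FPKM after conidia and 24.7 ± 2.85 FPKM in control. Shb, an adaptor of tyrosine kinase receptors, stood at 69.7 ± 15.9 FPKM after hyphae, 14.4 ± 1.42 FPKM after conidia and 13.1 ± 0.0777 FPKM in control. Those most like Klf2 were Zfp940, AW549877 and Cln8, with differences of 0.110, 0.122 and 0.126. Zfp940 was near the limit of the filter, at 0.327 ± 0.153 FPKM after hyphae and 1.04 ± 0.179 FPKM in control, where adding 1 before the logarithm compresses differences.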

How the data were processed

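Poly(A) RNA of whole mouse lung was sequenced on a BGISEQ instrument, per the labels' protocols, in 3 libraries per group. The deposited values were FPKM with 2 decimals, 1 file per library, per the file headers. The submitters' processing notes list HISAT, Bowtie2 and mm9, with no role for either program. Which program made the FPKM was not given in the sources used here, and neither the labels nor the headers name a batch. Symbols and Entrez IDs were used as the files give them.

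Values were transformed to log2(FPKM + 1), so changes of low genes are understated. Genes at 1 FPKM or more in at least 3 libraries were tested (13761, all 10 members among them). One limma-trend model with robust moderation (limma 3.58.1, R 4.3.3) was fitted to the 9 libraries, with 1 coefficient for each group. Tests were two-sided, adjusted by Benjamini and Hochberg over all genes tested, and called under 0.05. The code was tested on simulated data. Single values per library were compared by exact permutation tests (scipy 1.17.1), which cannot go below p = 0.1 with 3 against 3.

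The members and gene lists were chosen with earlier results of these data known. From each list of related genes up to 4 were named (marker lists are given as counts and sums), the called ones with the largest log2 difference of hyphae against control. One gene that this rule selects is not reported here. Nos3 and Tsc22d3 were named after their values were seen. The depth was approximated by taking the lowest non-zero value of genes listed at 0 in most libraries as 1 fragment, with an assumed fragment length of 150 bases, and covers no single value's precision. Alternatives were the rescaling, other pseudocounts and filters, other moderation, the 6 libraries compared alone, a term for the replicate number and the omission of each library.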

Additional observations from a re-analysis of the deposited data

How the results depend on the processing

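The 8 rises of Kruppel-like factors after hyphae, against control and against conidia, kept direction and call under all 19 alternatives. The number of members called against control ranged from 8 to 10 without single libraries, and against conidia from 8 to 9. The log2 difference of their summed FPKM (1.24 against control) was 1.67 after rescaling. Klf5 reversed under rescaling, with or without the replicate block, to 0.06 against control and 0.20 against conidia. For conidia against control, Klf2 ranged from −0.08 to 0.10 without single libraries, none called. There 95 genes and 1 Kruppel-like factor (Klf13) were called. The counts were 47 genes and 0 factors after rescaling, 43 and 0 without the filter on low values, 55 and 0 without the trend, 57 and 0 with the replicate block, and 13 and 0 with the block and rescaling together. Without single libraries they ranged from 0 to 1535 genes and from 0 to 1 factor. By limma 0 genes were called when control replicate 1, control replicate 2, control replicate 3 or conidia replicate 3 was omitted; an unadjusted p under 0.05 was then found for 2005, 2001, 2631 and 1878 genes. Omitting conidia replicate 2 gave 1535. The cause was not tested. Same-numbered libraries did not regularly deviate together. Their correlations over genes were −0.312 to 0.425, against −0.536 to 0.297 for libraries with different numbers. The highest was that of hyphae replicate 2 with control replicate 2. The numbers were not treated as pairs, and the block changed no call of a member but that of Klf13. The depth is approximate, and no interval for single values was computed.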
